A study of Arabidopsis thaliana with 8 samples.

Results

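The genes described here are 3 Arabidopsis thaliana genes for kinesins, AT3G44050, AT2G37420 and AT4G14330. They were picked by name, as kinesin genes with a probe whose platform annotation lists exactly 1 gene. Other kinesin genes may have such a probe and are not described here. Each has 1 such probe, so they make up 3 of the 3439 probes in the value table and 3 of the 690 single-gene probes that matched a reference gene. Wild-type plants (WT, ecotype Landsberg) were kept for 48 hours under red light, at 20 µE for 4 samples and at 200 µE for 4, and total RNA of each sample was read on 1 single-channel array. Both light levels carry replicate numbers 1 to 4. The labels name no tissue, no plant age and no area or time unit for the µE. Nor do they say whether a replicate is a separate plant, and the p-values below therefore cover array-to-array spread that could be technical.

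Kinesins are motor proteins that hydrolyse ATP to move along microtubules. Plants carry many of them, and several families act in dividing cells, where some slide spindle microtubules apart and others work in the phragmoplast, the microtubule array that builds the new cell wall between daughter cells. Transcripts of such kinesins are usually most abundant in tissue with many cells near mitosis, such as meristems and young leaves. The reference gene table gives the 3 genes here no symbol or family beyond the locus name, so no further role is assigned to any of them. In RNA from whole samples, fewer dividing cells and less transcript per cell cannot be told apart.

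The deposited values are intensities on a linear scale in which the brightest probes of each array stand at 100. Arrays at 200 µE were brighter over most probes: the median of the values above 0 ran from 0.267 to 0.345 at 20 µE and from 0.513 to 0.578 at 200 µE, and 573 to 604 probes per array against 476 to 540 were at 0. As deposited, the 2600 probes with a signal on every array had a median log2 difference of 0.82. A kinesin signal can therefore be higher at 200 µE as deposited and lower against the rest of its array, and the light differences of the kinesins are given on both scales below. Replicates 1 and 2 of both light levels also stood apart from replicates 3 and 4. With limma over all 3439 probes (quantile-normalized log2 values, adjusted p under 0.05), 79 probes or 2.3% were higher and 156 or 4.54% lower at 200 µE. The deposited values gave 883 or 25.7% higher and 44 or 1.28% lower, and median centring 42 or 1.22% higher and 170 or 4.94% lower.

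None of the 3 kinesins passed the test on normalized values without a block. Of them 1, AT3G44050, had an unadjusted p under 0.05 there, as did 18.3% of all probes. With the replicate number as a block AT3G44050 passed as lower (limma, adjusted p = 0.0242), as did 10.1% of all probes. In the deposited values AT2G37420 passed as higher. AT3G44050 was the gene with the clearer pattern: its deposited signal was slightly higher at 200 µE in every pair, yet it lost rank among the probes of its array in all 4 same-numbered pairs. AT2G37420 was higher as deposited by close to the amount of a typical probe and kept a middle rank. AT4G14330 gave no signal to compare.

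The deposited intensity of AT3G44050 at 20 µE was 0.449, 0.482, 0.486 and 0.464 in replicates 1 to 4, and at 200 µE it was 0.518, 0.609, 0.534 and 0.600. Every array at 200 µE was above every array at 20 µE, and the 20 µE arrays lay close together. The means were 0.471 ± 0.0172 (SD, n = 4) and 0.565 ± 0.0462 (SD, n = 4). The log2 difference was 0.26, with a 95% interval of −0.06 to 0.58 (limma, adjusted p = 0.151; 0.0694 with the replicate block). The exact two-sided permutation p of this difference was 0.0286, the smallest that 4 against 4 arrays can give, and it takes arrays as exchangeable, which their pairing does not allow. Groups that did not overlap, with 200 µE higher, were common, at 42% of the 2600 probes above 0 on all arrays.

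Within its array AT3G44050 stood lower at 200 µE. Its percentile among all probes was 75.9, 77.8, 69.4 and 67.4 at 20 µE and 58.1, 64.7, 55.2 and 58.2 at 200 µE, in replicates 1 to 4. All 4 arrays at 200 µE ranked below all 4 at 20 µE, and the same-numbered differences were −17.8, −13.1, −14.2 and −9.22 percentile points. The quantile-normalized intensity averaged 0.657 ± 0.101 (SD, n = 4) in dim light, against 0.441 ± 0.0538 (SD, n = 4) in bright light. The log2 difference was −0.57 ± 0.14 (SE), with a 95% interval of −0.89 to −0.24, and it missed the threshold in limma (adjusted p = 0.0605). With the replicate number as a block the same difference passed (limma, adjusted p = 0.0242), in a fit where 10.1% of all probes were called lower. Groups that did not overlap, with 200 µE lower after normalization, made up 11.2% of the 2600 probes, and 30.9% were lower in all 4 pairs.

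**Figure D1:**
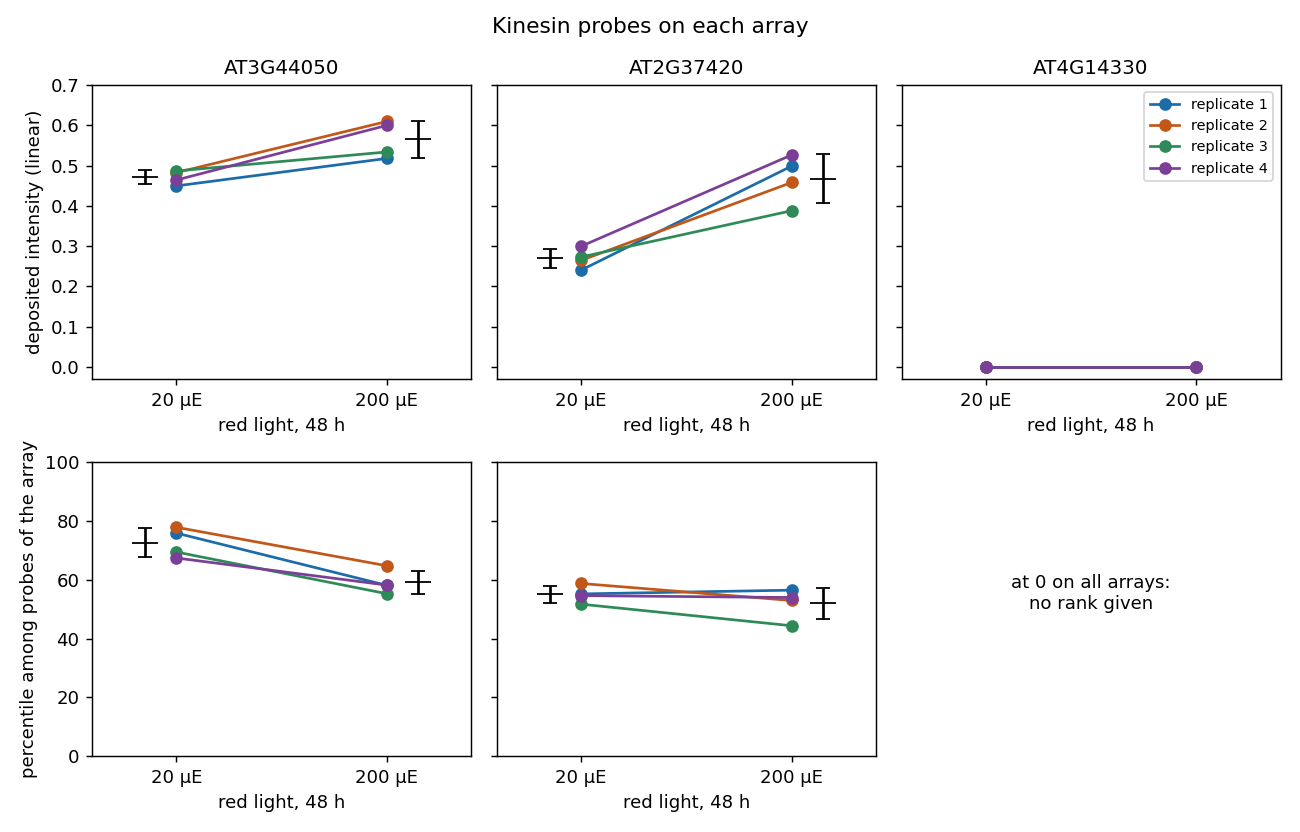
Each kinesin probe on each array, with the deposited intensity (upper row) and the percentile among all probes of the array (lower row) at 20 and 200 µE. Coloured lines join arrays of the same replicate number, and black marks give the mean ± SD of 4 arrays. AT3G44050 was higher at 200 µE as deposited but lower in rank in every pair, AT2G37420 was higher as deposited with a percentile near 50, and AT4G14330 was at 0 throughout.

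The AT2G37420 probe had deposited intensities of 0.241, 0.265, 0.273 and 0.300 at 20 µE and 0.499, 0.458, 0.388 and 0.526 at 200 µE, in replicates 1 to 4. The light levels did not overlap, and the same-numbered pairs rose 2.07-fold, 1.73-fold, 1.42-fold and 1.76-fold. Replicate 3, where this probe was dimmest at 200 µE, had the smallest of these folds. Of the 2600 probes above 0 on all arrays, 42% were higher at 200 µE without overlap and 77.5% were higher in all 4 pairs. The means were 0.269 ± 0.0244 (SD, n = 4) and 0.468 ± 0.0601 (SD, n = 4). The log2 difference of 0.79, with a 95% interval of 0.41 to 1.17, passed in the deposited values (limma, adjusted p = 0.0165), where 25.7% of all probes passed as higher.

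Within its array AT2G37420 lay near the middle at both light levels. Its percentile was 55.2, 58.7, 51.7 and 54.6 at 20 µE and 56.5, 52.9, 44.4 and 54.0 at 200 µE. The groups overlapped, and the 200 µE array of replicate 3 was again the lowest. The normalized log2 difference was −0.14 ± 0.13 (SE), far from the threshold (limma, adjusted p = 0.665). Its 95% interval of −0.45 to 0.17 leaves room for a moderate fall as well as a small rise. The pairs gave 0.06, −0.25, −0.34 and −0.03, so the sign was not shared by all 4.

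The 3 normalizations gave like values for each gene, and the deposited values had the opposite sign. AT3G44050 had −0.58 with median centring and −0.56 with cyclic loess, against −0.57 with quantile normalization and 0.26 as deposited. AT2G37420 had −0.05 and −0.10 with the first pair of methods, −0.14 with quantile normalization and 0.79 as deposited. In each normalization AT3G44050 was lower in all 4 pairs, while AT2G37420 was higher in 1 or 2 of them.

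**Figure D2:**
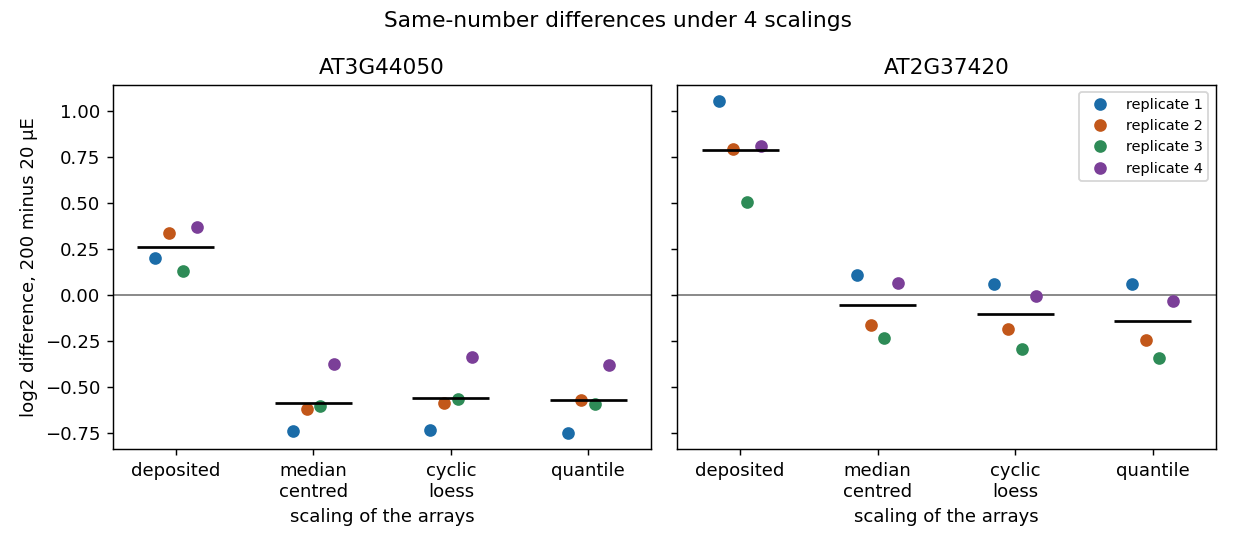
Log2 difference between the 200 and 20 µE arrays of the same replicate number for AT3G44050 and AT2G37420, in the deposited values and under median centring, cyclic loess and quantile normalization. Points are the 4 pairs and black lines their mean. The AT3G44050 pairs were all above 0 as deposited and all below 0 after each normalization, and the AT2G37420 pairs lay above 0 as deposited and on both sides of it after normalization.

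The ratio of AT3G44050 to AT2G37420 on the same array does not depend on how that array was scaled, as long as 1 factor applies to all its probes. As a log2 value it was 0.90, 0.87, 0.83 and 0.63 at 20 µE and 0.05, 0.41, 0.46 and 0.19 at 200 µE, in replicates 1 to 4. The groups did not overlap, and the ratio was lower at 200 µE in 4 of 4 pairs, by 0.37 to 0.85. The means were 0.81 ± 0.12 (SD, n = 4) and 0.28 ± 0.19 (SD, n = 4), a difference of −0.53 (exact two-sided permutation p = 0.0286, with the arrays taken as exchangeable in spite of their pairing). In the quantile-normalized values the difference was −0.43. An exact sign-flip test over the 4 pairs gave p = 0.125, the smallest possible with 4 pairs, so that test could not pass. A lower ratio shows unequal change of the 2 signals on these arrays, and not that either stayed level. Of the other 2599 probes above 0 on all arrays, 10.4% had a ratio to AT2G37420 that was lower at 200 µE without overlap and 5.12% one that was higher, so the separation of AT3G44050 was shared with many probes. This was the 1 ratio of the 3 possible that could be formed, since AT4G14330 was at 0.

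**Figure D3:**
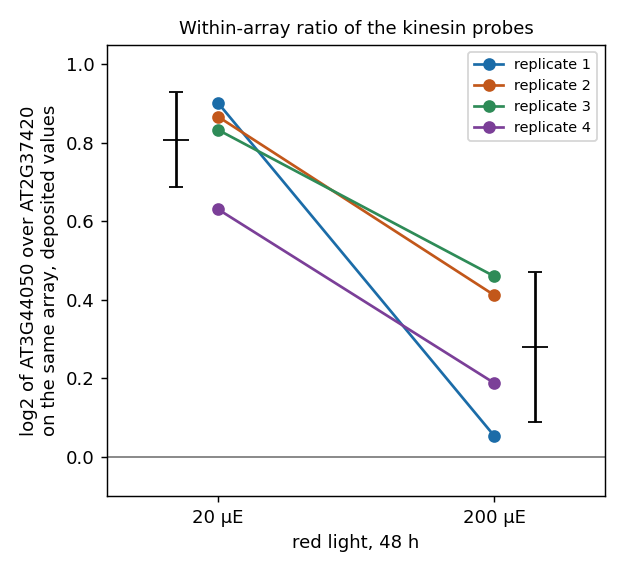
Log2 ratio of the deposited intensity of AT3G44050 to that of AT2G37420 on the same array at 20 and 200 µE. Lines join arrays of the same replicate number, and black marks give the mean ± SD of 4 arrays. The 4 arrays at 20 µE lay between 0.63 and 0.90 and the 4 at 200 µE between 0.05 and 0.46.

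The 2 genes were also set beside single-gene probes of like brightness. AT3G44050 lay at percentile 68.7 of mean brightness, and the 100 single-gene probes nearest to it had a median deposited log2 difference of 0.91, with quartiles of 0.66 and 1.17. Of those 100 probes, 7 had a smaller deposited difference than AT3G44050, and 6 a lower normalized one. AT2G37420 lay at percentile 55.7, where the 100 nearest probes had a median deposited difference of 0.90 and quartiles of 0.50 and 1.23, and 44 of them had a smaller difference. Among all other probes above 0 on all arrays, 82.9% had a larger deposited difference than AT3G44050 and 52.3% a larger one than AT2G37420. By its light difference AT3G44050 was thus toward the lower end of the probes and AT2G37420 near their middle, as a description and not a test.

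**Figure D4:**
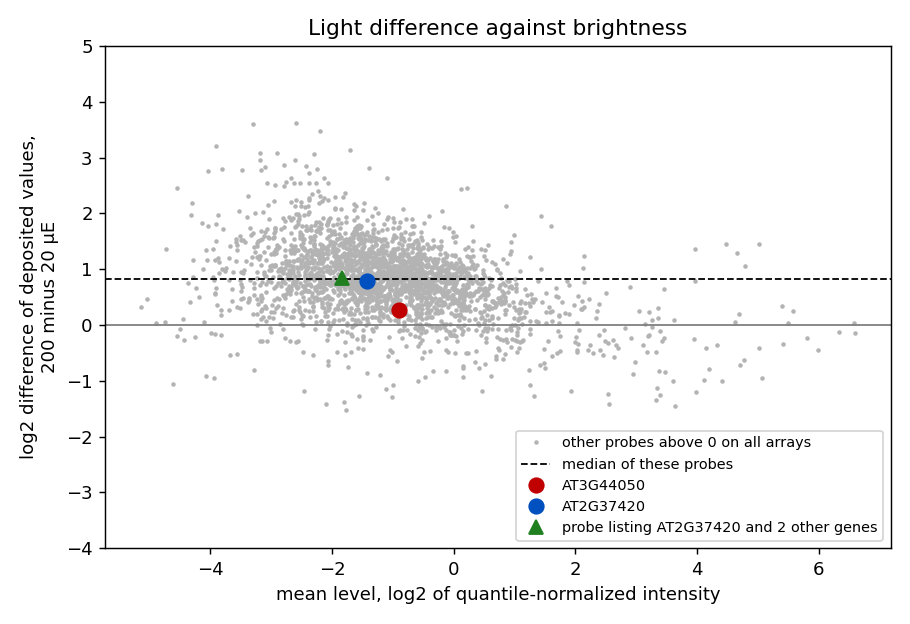
Log2 difference of the deposited values, 200 minus 20 µE, against the mean quantile-normalized log2 intensity, for the 2600 probes above 0 on all 8 arrays. The dashed line marks their median of 0.82. AT2G37420 at 0.79 lay near that line, AT3G44050 at 0.26 below it but above 0, and the probe that lists AT2G37420 with 2 other genes at 0.83 on it.

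AT4G14330 was listed at 0 on 8 of 8 arrays. This was not rare: 66 of the 690 single-gene probes, or 9.57%, and 320 of all 3439 probes, or 9.31%, were at 0 on every array. No detection call accompanied the values, so a listed 0 does not separate an absent transcript from a probe that gave no reading. No difference or ratio is given for it. AT3G44050 and AT2G37420 were above 0 on all 8 arrays, as were 535 of the 690 single-gene probes.

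Neither measured kinesin was among the probes called different between the sets of replicates. Replicates 3 and 4 minus replicates 1 and 2 differed by 0.02 for AT3G44050 and 0.05 for AT2G37420 on the deposited log2 scale, and by −0.29 and −0.21 after normalization. Neither normalized difference passed (limma, adjusted p = 0.435 and 0.232), while 28.7% of all probes did. Within replicates 1 and 2 the normalized light difference was −0.66 for AT3G44050 and within replicates 3 and 4 it was −0.48. For AT2G37420 these were −0.09 and −0.18. The light difference was not shown to differ between the sets for either gene (interaction in limma, adjusted p = 0.716 and 0.997), against 5.79% of probes for which it was.

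A further probe has an annotation that lists AT2G37420 together with AT3G45850 and AT2G28620, so its signal cannot be assigned to any 1 of them. Its deposited intensity was 0.304, 0.271, 0.148 and 0.114 at 20 µE and 0.464, 0.522, 0.236 and 0.247 at 200 µE, in replicates 1 to 4. It was higher at 200 µE in all 4 pairs, as were 77.5% of probes, but the groups overlapped. Its signal was dimmer in replicates 3 and 4 at both light levels. The deposited log2 difference of 0.83 missed the threshold (limma, adjusted p = 0.156) and passed with the replicate block (0.0118), in a fit where 63.4% of all probes passed as higher. After normalization the difference was −0.20 ± 0.49 (SE; limma, adjusted p = 0.962). Between the sets it differed by −1.24 after normalization (limma, adjusted p = 0.000725), unlike the single-gene AT2G37420 probe at −0.21, though the difference between these probes was not itself tested. Another probe, which lists AT3G45850, AT2G36200 and AT2G28620, was at 0 on all 8 arrays, as were 9.31% of all probes.

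No other gene of the cell division machinery listed for comparison could be read. The 6 lists held 87 genes for cyclins and their kinases, G1 and S phase regulators, DNA replication, the spindle and chromosomes, the phragmoplast, and other kinesins of division, and 0 of the 87 had a single-gene probe. Of 30 marker genes for green tissue, meristem, flower, root, seed, phloem, xylem, trichomes, stomatal lineage and dividing cells, 0 had one either, so neither the tissue nor the presence of dividing cells could be checked by those markers.

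The reference gene table names 7 further single-gene probes for genes tied to chromatin replication, the cell cycle or meristems, chosen by those names. The list has 2 genes for histone H3.1, the histone laid down during DNA replication, and FBL17, an F-box protein that removes inhibitors of cyclin-dependent kinases. The rest are AT1G78790 (MHF2, a histone-fold partner of a DNA repair helicase), TRM31 of the family that recruits TON1 to cortical microtubules, the growth regulator TCP15 and LAS, a regulator of axillary meristems. After quantile normalization 0 of the 7 passed limma in either direction, where 2.3% of all probes passed as higher and 4.54% as lower, and 0 had an unadjusted p under 0.05. Of these genes, 6 were above 0 on all arrays and TRM31 was at 0 on all of them. The median of the 6 was −0.05 after normalization and 0.82 in the deposited values, beside −0.04 and 0.82 for the 2600 probes with a signal on every array.

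The H3.1 gene AT1G09200 had deposited intensities of 0.244, 0.273, 0.129 and 0.147 at 20 µE and 0.422, 0.434, 0.278 and 0.307 at 200 µE. The light levels did not overlap, as on 42% of the 2600 probes, and this probe was dimmer in replicates 3 and 4 at each. Its normalized log2 difference was −0.13 ± 0.36 (SE; limma, adjusted p = 0.98). The second H3.1 gene, AT5G65360, had 0.429, 0.406, 0.257 and 0.569 at 20 µE and 0.783, 0.724, 0.516 and 0.926 at 200 µE, with a normalized difference of 0.02 ± 0.31 (SE). Genes for H3.1 are close copies of each other, so each probe may also have bound transcripts of the rest.

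FBL17 was dim, with 0.0590, 0.0667, 0.0365 and 0.0153 at 20 µE and 0.178, 0.198, 0.0868 and 0.0318 at 200 µE. Its replicates differed more than its light levels did, and the normalized difference of −0.66 carried an SE of 0.94 (limma, adjusted p = 0.837). AT1G78790 and LAS were the steadier probes. As deposited, AT1G78790 had a mean of 0.508 ± 0.1 (SD, n = 4) at 20 µE, and at 200 µE its mean was 0.846 ± 0.0279 (SD, n = 4). LAS had 0.663 ± 0.0285 and 1.15 ± 0.253 (SD, n = 4 each), and both genes passed as higher there (limma, adjusted p = 0.0272 and 0.0309), in a fit where 25.7% of all probes did. After normalization their log2 differences were −0.04 and 0.05. TCP15 had a normalized difference of −0.05 ± 0.52 (SE) and a deposited one of 0.78.

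Across the 8 arrays the normalized log2 values of AT3G44050 and AT2G37420 correlated with r = 0.583, a description over arrays that share their pairing and sets. In the deposited values r was 0.861, where most probes shared the higher signal at 200 µE, and with the means of the light levels removed from the normalized values it was 0.527. Among 533 other single-gene probes above 0 on all arrays, the patterns most like that of AT3G44050 were those of AT4G33540 (r = 0.966), AT5G52530 (r = 0.96) and PRA1.B3 (r = 0.943). Their normalized light differences were −0.63, −1.16 and −0.77, and the last 2 passed as lower (limma, adjusted p = 0.0401 and 0.00313), as did 4.54% of all probes. Likeness was measured across both light levels, so probes picked by it tend to share the lower level of AT3G44050 at 200 µE. These calls are therefore no separate result. With the means of the light levels removed the nearest were AT2G35450, AT3G15140 and AT5G14910, at r = 0.937, 0.931 and 0.927. Their normalized light differences were 0.27, −0.02 and 0.02. For AT2G37420 the nearest were AT3G02450 (r = 0.906), AT3G57570 (r = 0.891) and AT5G62360 (r = 0.881), and with the means removed AT1G68430, AT3G02450 and SPL, at r = 0.91, 0.896 and 0.894. Of the 533 probes, 30.4% had r above 0.5 with AT3G44050 and 27.8% with AT2G37420, and with the means removed 39.8% and 31.7%.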

How the data were processed

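Per the file, the deposited values are linear intensities, with 1 value for each probe on each array; the steps by which the authors obtained them are not stated in the labels. No 2 arrays held identical values. A value of 0 was replaced by its array's lowest positive value before quantile normalization over all 3439 probes and log2 transformation. The test was limma's (version 3.58.1, R 4.3.3, lmFit and eBayes with no covariate), two-sided. Adjustment of p-values across the whole table was by Benjamini-Hochberg, with 0.05 as the threshold. The test was checked on simulated data with independent noise on each array. That check did not cover the pairs and sets seen in these arrays. The number of arrays limits the precision.

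Same-numbered arrays deviated together from their group means (r of 0.707 to 0.735 in the 4 pairs over 2600 probes), so equal numbers were treated as pairs, which rests on the values and is not stated by the labels. The block of replicate numbers is given where it changes a call.

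Genes came from the platform annotation, matched to RefSeq's TAIR10.1 table for names only. No sequence or coordinate was used. The members, lists and tests were chosen with earlier results of these data known. Named genes were the members, the listed genes with a single-gene probe, and the 3 probes most like each member by Pearson r. The list of 7 genes was added from the annotation's names after the lists chosen first matched no single-gene probe.

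Alternatives covered the normalization, the values at 0, filters, the variance model, the blocks, each set of replicates and leaving out each array.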

Additional observations from a re-analysis of the deposited data

How the results depend on the processing

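The light difference of AT3G44050 stayed between −0.66 and −0.48 and that of AT2G37420 between −0.21 and −0.02 under every normalization, filter, block, set or left-out array run, except in the deposited values, where they turned to 0.26 and 0.79, also with the replicate block added after seeing the data (limma, adjusted p = 0.0694 and 0.0120 there). AT3G44050, at −0.57, passed with the replicate block (limma, adjusted p = 0.0242) and with the set block (0.00747). It also passed with the replicate block under median centring and under cyclic loess (limma, adjusted p = 0.0333 and 0.0263). In the other runs its adjusted p ran from 0.0573 to 0.152. Its set interaction of 0.17 turned to −0.019 in the deposited values. The within-array ratio was −0.53, without single arrays −0.59 to −0.45, with quantile-normalized values −0.43 and with a pseudocount −0.40. The replicate block, as an exact sign-flip test, gave p = 0.125 for the same −0.53. Calls over all probes, 235, became 927 in the deposited values (2266 with the replicate block), 97 with a floor set after normalization, 125 without probes at 0 on any array, 146 without the lowest 25% of probes, 619 with the replicate block, 746 with the set block, 611 in replicates 3 and 4 alone and 140 to 173 without single arrays. The cause of these shifts was not tested. AT4G14330 gave no value under any setting: as deposited, the floor alone would give it a difference of 4.53. Ratios to it could not be formed.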
